A study of Sus scrofa with 16 samples.

Results

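The interior of chromosome 1 was taken as the part of this chromosome that lies more than 5 Mb from position 1 and more than 5 Mb from the largest end of a peak seen on it, which was 314217767 bp in the pig genome build Sscrofa10.2. This left 304.2 Mb, from chr1:5000002 to chr1:309217766. A methylation peak belonged to the interior when its midpoint lay there. Of 1159046 peaks in the 4 lists, 106697 (9.21%) were members. They were 25441 of 280678 peaks (9.06%) in Tibetan highland (TH) pigs, 26306 of 287224 (9.16%) in Yorkshire highland (YH) pigs, 24327 of 259066 (9.39%) in Tibetan lowland (TL) pigs and 30623 of 332078 (9.22%) in Yorkshire lowland (YL) pigs. Chromosome 1 was chosen by its low density of peaks in these lists, so the density is given as a description, without a test.

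Methylated DNA immunoprecipitation sequencing (MeDIP-seq) was done on heart tissue from 16 boars, 4 in each group, all castrated and 6 months old. TH and YH pigs were kept at 3000 m, and TL and YL pigs at 100 m. The YH and TL animals came from stock that had been moved to the other elevation and bred there, so within a breed a difference between elevations and one between native and moved stock cannot be told apart. Each group has 1 list of peaks, with at most 4 peaks over any base, which was read as the joined peaks of its 4 animals. The lists do not say which animal a peak came from.

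DNA methylation in mammals is found mainly on cytosines of CpG pairs. An antibody against 5-methylcytosine enriches fragments that hold many of them, so that a peak marks a place that is both methylated and rich enough in CpG to be pulled down. Mammalian chromosomes hold wide stretches with few genes and few CpG pairs. Fewer peaks in a stretch can therefore reflect fewer CpG pairs or less methylation, and a list of peaks does not tell them apart. In tissue of mixed cells, methylation in fewer cells and less methylation per cell cannot be told apart either.

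At the first border of the interior, the first peaks inside began between chr1:5002434 in YL and chr1:5002710 in TH and held 15 to 25 tags (sequenced reads in a peak), and the last peaks outside held 25 to 78 tags. At the second border, the last peaks inside held 12 to 18 tags and the first outside held 15 to 47.

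The interior of chromosome 1 held 83.6 peaks per Mb for TH, 86.5 for YH, 80.0 for TL and 100.7 for YL. The 95% counting intervals were 82.6 to 84.7 for TH, 85.4 to 87.5 for YH, 79.0 to 81.0 for TL and 99.5 to 101.8 for YL, and they cover counting error only. The interiors of chromosomes 2 to 18, cut in the same way and pooled, held 105.3, 107.4, 97.8 and 125.0 peaks per Mb in the same order. The ratio of chromosome 1 to these others was 0.794 for TH, 0.805 for YH, 0.818 for TL and 0.805 for YL. Chromosome 1 had the third lowest density of the 18 autosomal interiors in each of the 4 lists, so it was sparse but not the sparsest, since chromosomes 13 and 15 were lower. The gap was wider in covered bases, and the peaks of chromosome 1 were also shorter. Peaks covered 5.01% of the interior for TH, 4.92% for YH, 4.46% for TL and 5.74% for YL, against 7.003%, 6.89%, 6.15% and 8.08% of the pooled others. The 10 Mb left out at the ends of chromosome 1 were denser than its interior in every list, with 104.2 peaks per Mb for TH, 106.1 for YH, 102.2 for TL and 122.4 for YL.

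**Figure D1:**
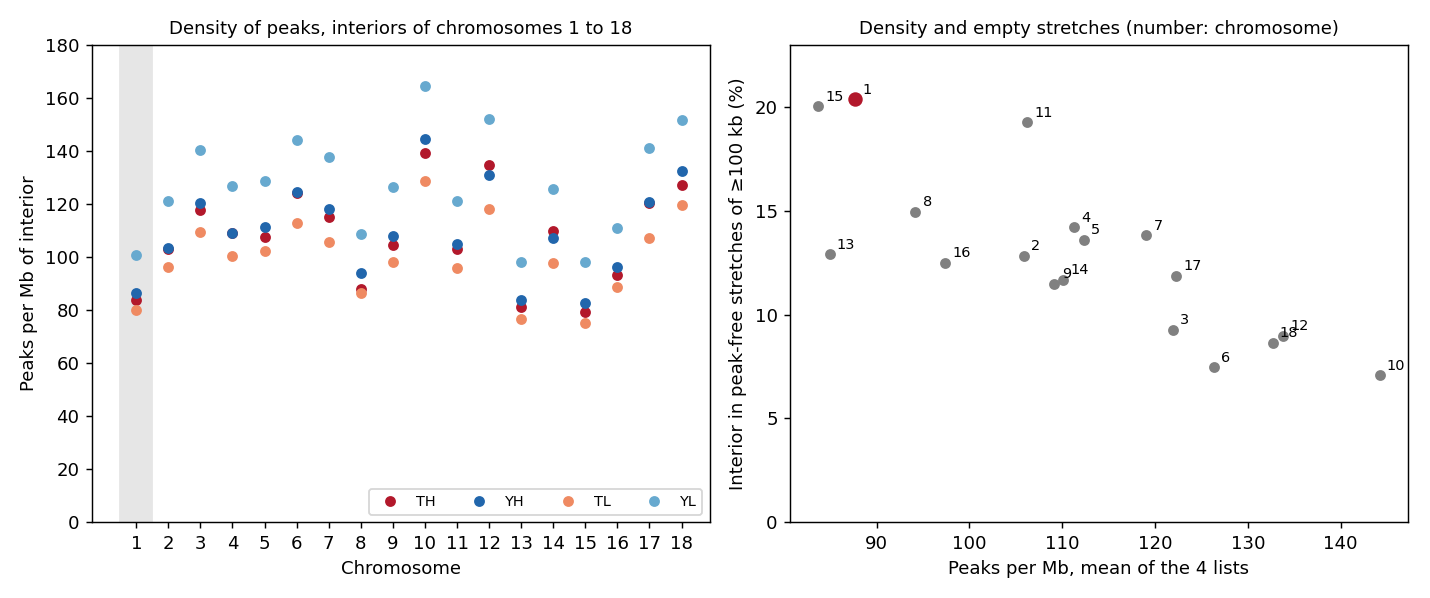
Left, peaks per Mb of interior (y axis) for chromosomes 1 to 18 (x axis), with 1 point per list and chromosome 1 shaded. Right, the percentage of each interior in peak-free stretches of at least 100 kb (y axis) against its mean density over the 4 lists in peaks per Mb (x axis), with chromosome numbers beside the points. Chromosome 1 is the third lowest in density in every list and, at 20.4%, the highest in peak-free stretches.

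The order of the lists, TL, TH, YH and YL from the lowest to the highest density, was also the order of their sequencing depth. The uniquely mapped reads summed over the 4 animals were 56.0 M for TL, 61.5 M for TH, 64.6 M for YH and 68.3 M for YL. When overlapping peaks of a list were merged, TH (45.7 regions per Mb) was above YH (44.1). The density of YL was 1.26 times that of TL per Mb and 1.03 times when scaled to the reads. Per Mb and per M reads, the density was 1.36 for TH, 1.34 for YH, 1.43 for TL and 1.47 for YL, so with this scaling TL stood above TH and YH, and YL was still the highest. With 1 list per group, the spread of these densities between animals is unknown, and the part of depth in the order of the lists was not tested.

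Along the interior, the lists rose and fell together. In 304 bins of 1 Mb, the median number of peaks was 81 for TH, 86 for YH, 83 for TL and 99 for YL, and the bins ranged from 0 peaks in each list to 216, 239, 214 and 263. The coefficient of variation over the bins, the SD divided by the mean, was between 0.558 and 0.582. Its mean over the lists, 0.572, was the third highest of the 18 interiors. Between any pair of lists, the Pearson correlation over the 304 bins was from 0.971 to 0.982, and the Spearman correlation from 0.975 to 0.983. These are descriptions, since bins of a list share its 4 libraries and all lists share the same base composition. YL alone was highest in 237 of the 304 bins. TL alone was lowest in 143, TH alone in 73 and YH alone in 50, and TL, TH, YH and YL stood in this order in 69 bins, so it was the place of YL that held over most of the chromosome.

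**Figure D2:**
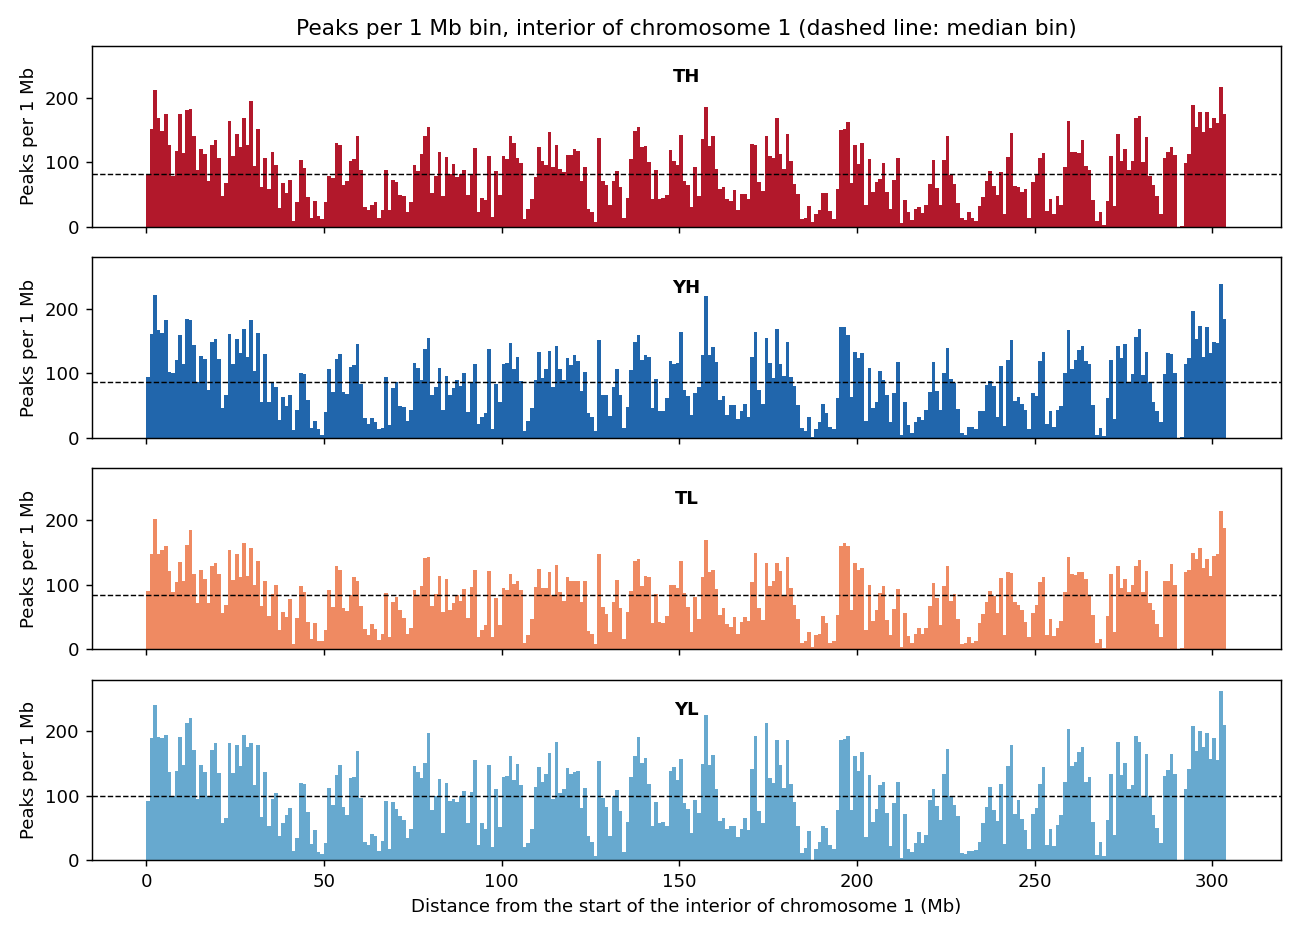
Peaks per 1 Mb bin (y axis) along the interior of chromosome 1, by distance from its start in Mb (x axis), with 1 panel per list and the median bin as a dashed line. Most bins near both ends of the interior stand above the median of 81 (TH), 86 (YH), 83 (TL) and 99 (YL) peaks, although the first bin, with 80, 95, 90 and 92, does not in TH and YL, the middle holds low valleys, and the same valleys appear in all 4 lists.

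The density was highest towards both ends of the interior. In segments of 20 Mb, the mean over the 4 lists was 141 peaks per Mb at 5 to 25 Mb and 106 at 25 to 45 Mb. It was lowest at 205 to 225 Mb, with 59.6 peaks per Mb, and next lowest at 225 to 245 Mb, with 60.8. It reached 184 peaks per Mb in the last 4.2 Mb. The lists agreed on this shape, since the segment at 5 to 25 Mb held 135.1 peaks per Mb for TH, 140.4 for YH, 127.9 for TL and 162.2 for YL, and the segment at 205 to 225 Mb held 55.5, 58.8, 54.4 and 69.7.

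The 10 densest bins began at about 307, 7, 162, 17, 308, 299, 16, 34, 10 and 301 Mb. The densest, chr1:307000002-308000001, held 216 peaks for TH, 239 for YH, 214 for TL and 263 for YL. The next, chr1:7000002-8000001, held 212, 221, 202 and 240. The third, chr1:162000002-163000001, stood alone in the middle of the chromosome and held 186 peaks for TH, 220 for YH, 169 for TL and 225 for YL. Of the gene windows described further on, SARDH, which codes for sarcosine dehydrogenase of the mitochondrial one-carbon metabolism, lies in the densest bin, and windows of PARK2, which codes for the ubiquitin ligase parkin, in the next. ESR1, the oestrogen receptor alpha gene, lies in the bin at 16 Mb. Over the middle bases of their own windows, SARDH had only 1 peak, in YH, and ESR1 only 2, in YL. None of the listed genes lies in the 10 sparsest bins. These are 10 of 304 bins, and a window could be listed through its peaks, so nothing is read from the places of the genes.

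The sparsest bins were 2 neighbours at chr1:295000002-297000001. Together they held 1 peak in each list. The bins on either side were not poor in peaks, with 111, 100, 99 and 134 peaks before them and 99, 114, 120 and 111 after them, in TH, YH, TL and YL. The other 8 of the 10 sparsest bins began at about 192, 274, 217, 272, 131, 235, 54 and 220 Mb and held between 1 and 13 peaks in a list. The densest 30 bins of each list held 20.2% of its peaks for TH, 19.9% for YH, 19.4% for TL and 19.6% for YL, while the sparsest 30 bins held 1.41%, 1.21%, 1.38% and 1.28%.

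At a finer scale, 264 of 3042 bins of 100 kb (8.68%, 95% Wilson interval 7.73 to 9.73%) had no peak in any list. This was the highest share of the 18 interiors, with chromosome 15 at 8.60% and chromosome 11 at 7.73% close behind, and 5.05% of the 100 kb bins of the others were empty. A stretch without peaks can span several neighbouring bins, so the interval is too narrow, and the differences were not tested. The fullest 100 kb bin, chr1:284400002-284500001, held 47 peaks for TH, 36 for YH, 44 for TL and 38 for YL. Chromosome 1 also had 57 bins of 100 kb with at least 100 peaks summed over the lists. They were 1.87% of its 100 kb bins, against 3.45% on the other interiors, and this share was the third lowest of the 18.

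Stretches without a peak in any list made up 90.9% of the interior. Those of at least 100 kb numbered 352 and summed to 62.0 Mb, or 20.4% of the interior. The same measure was 12.7% over the other interiors, 20.04% on chromosome 15 and 12.9% on chromosome 13. Chromosome 13 was sparser than chromosome 1 in peaks per Mb, but less of it lay in long empty stretches. The longest stretch on chromosome 1 was chr1:237146441-237894550 (748110 bp), and the next was chr1:294989399-295580219 (590821 bp). A single peak in YL separated the second from the fourth longest, chr1:295580670-296096185 (515516 bp). The third longest was chr1:46591825-47143851 (552027 bp) and the fifth chr1:192229035-192726109 (497075 bp). Within 500 kb of the longest stretch there were 28 peaks for TH, 28 for YH, 25 for TL and 27 for YL. The sequence of these stretches was not used here, so how much of them is assembled or open to unique mapping was not examined.

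The peaks of chromosome 1 were smaller in tags and length than those of the other interiors and higher in fold enrichment. The median peak held 22 tags for TH, 23 for YH, 20 for TL and 24 for YL, against 26, 28, 24 and 29 on chromosomes 2 to 18. The sparser chromosomes 13 and 15 were alike or further apart, with 20, 22, 19 and 23 tags on chromosome 13 and 21, 23, 20 and 24 on chromosome 15. The median length was 889 bp for TH, 903 bp for YH, 841 bp for TL and 918 bp for YL, against 975, 1008, 925 and 1025 bp, and it was 848, 867, 803 and 880 bp on chromosome 13. The median fold enrichment over the local background was 9.06 for TH, 8.13 for YH, 8.60 for TL and 8.23 for YL, against 8.35, 7.36, 7.93 and 7.56, and it was 9.38, 8.26, 8.86 and 8.42 on chromosome 13. Within chromosome 1, the same contrast held between its dense and its empty parts. In the densest 30 bins by the mean of the lists, the median peak held 31 tags for TH, 33 for YH, 28 for TL and 34 for YL, while in the sparsest 30 bins it held 16, 17, 15 and 17. The median fold enrichment went the other way, with 7.72, 6.74, 7.24 and 7.05 in the densest bins and 10.57, 9.65, 10.12 and 9.67 in the sparsest. Over the bins with at least 10 peaks (294 to 296 per list), the Spearman correlation of the number of peaks was 0.75 to 0.80 with the median tags and -0.77 to -0.75 with the median fold enrichment. Sparse bins of chromosome 1 thus held few peaks of few tags and high fold enrichment. Fold enrichment is itself computed from a peak's tags and its background, so these measures are not independent of each other.

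One place stood apart in tags. At chr1:100578001-100581000 all 16 animals had a peak, and the 4 peaks there were the 4 highest of the interior in each list. The peaks held 921, 1143, 1410 and 1467 tags in TH. They held 1687, 2169, 2238 and 2537 tags in YH. The values were 1073, 1229, 2247 and 2538 for TL and 2072, 2575, 2579 and 2713 for YL. All YH and YL peaks were above all TH peaks, and TL overlapped every other list. Fold enrichment was 10.1 to 11.07 for TH, 6.67 to 8.86 for YH, 6.80 to 9.91 for TL and 6.26 to 7.03 for YL. The highest peak elsewhere in the interior held 474 tags for TH, 1001 for YH, 309 for TL and 766 for YL, and in TH, YH and YL it lay in the fullest 100 kb bin. Tags are not scaled to depth and belong to unnamed animals, so these values were not tested.

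Most bases under a peak of chromosome 1 were not covered in all animals of a group. Of the covered bases, 54.1% for TH, 51.1% for YH, 56.1% for TL and 49.4% for YL lay under 1 peak. The share under 4 peaks was 5.57% for TH, 11.8% for YH, 9.16% for TL and 11.7% for YL. On the pooled other chromosomes this share was 5.42%, 12.6%, 9.05% and 11.9%. TH was the list with the fewest bases under 4 peaks on both. Among the 18 interiors, the share of chromosome 1 under 4 peaks ranked between the sixth and the twelfth lowest. Its share under 1 peak was the second highest in TH, the fourth highest in YL and the sixth highest in YH, and lay in the middle of the range in TL. Counted by peaks, 14.4% for TH, 27.3% for YH, 23.4% for TL and 28.6% for YL had 4 peaks of the list over the summit, and in YH and YL this was the most frequent number. Peaks that recurred were larger. Where 1 peak of the list lay over the summit, the median peak held 18 tags for TH, 19 for YH, 17 for TL and 19 for YL, and where 4 peaks did it held 27, 31, 27 and 31.

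To set the groups side by side, the interior was divided into 608436 windows of 500 bp, and the peaks over the middle base of each window were counted, from 0 to 4 in a group. A peak lay over the middle base in 55151 windows (9.06%), against 12.5% of the windows of the other interiors. Of these 55151 windows, 19086 (34.6%) had a peak in 1 of 16 animals and 568 (1.03%) in 16 of 16. The pooled others had 33.7% and 1.09%. The 568 windows formed 333 regions. Of them, 25.9% lay in the densest 30 bins of 1 Mb, which held 22.7% of the windows with a peak. In the last 4.2 Mb, 63 of 2101 windows with a peak (2.999%) had it in all animals.

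**Figure D3:**
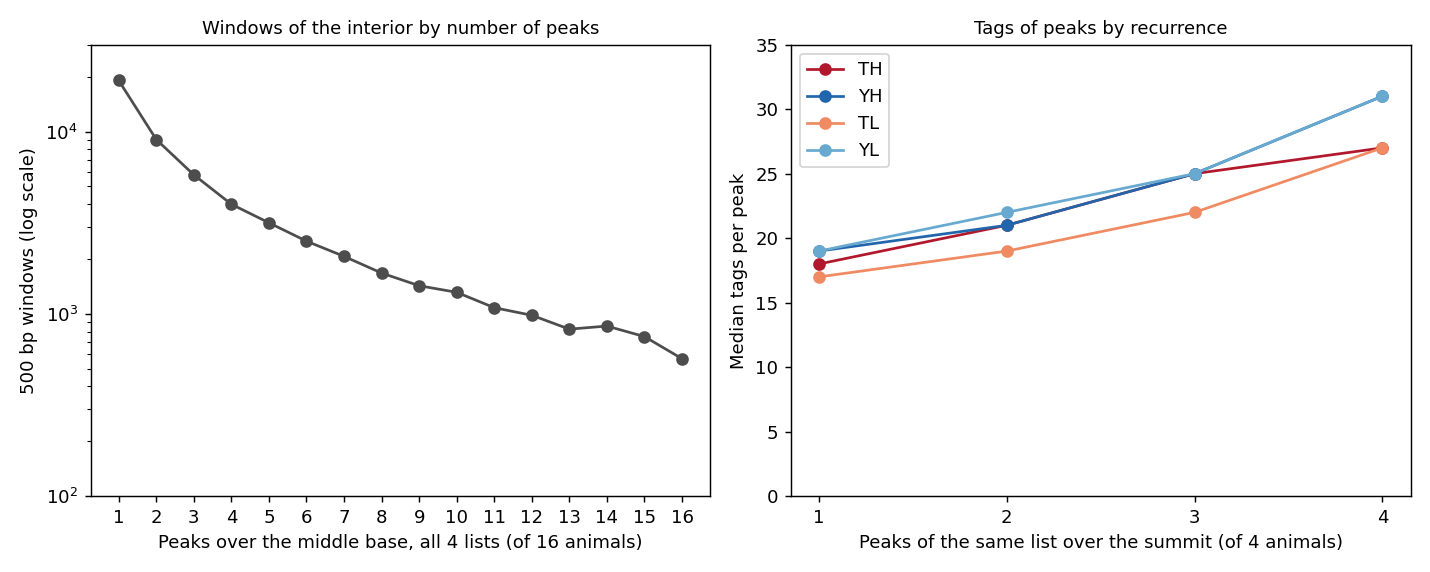
Left, number of 500 bp windows of the interior (y axis, log scale) by the number of animals with a peak over the middle base (x axis, 1 to 16). Right, median tags per peak (y axis) by the number of peaks of the same list over its summit (x axis), with 1 line per list. Windows fall from 19086 with 1 peak to 568 with 16, and tags rise from 17 to 19 at 1 peak to 27 to 31 at 4 peaks.

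The other 4 of the 5 longest regions with a peak in all 16 animals were far lower in tags than the one at 100.6 Mb. At chr1:87155501-87158000 the peaks held 63 to 149 tags for TH, 99 to 124 for YH, 75 to 146 for TL and 86 to 155 for YL. At chr1:163669001-163671500 they held 74 to 242, 136 to 177, 159 to 174 and 134 to 251. At chr1:305520001-305522500 they held 72 to 245, 126 to 172, 99 to 149 and 99 to 326. At chr1:23673001-23675000 they held 41 to 127, 93 to 117, 59 to 86 and 71 to 155. The 4 groups overlapped in tags at the first 3 of these regions. At the last, all YH peaks were above all TL peaks, and the other pairs of groups overlapped.

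The lists overlapped on chromosome 1 to about the same degree as elsewhere. The Jaccard index, the bases covered in both lists divided by those covered in either, was 0.437 for TH and YH, 0.426 for TL and YL, 0.433 for TH and TL and 0.497 for YH and YL. For the native pair, TH and YL, it was 0.460, and for the moved pair, YH and TL, 0.433. On the pooled others the index was 0.447, 0.432, 0.442, 0.507, 0.462 and 0.447 in the same order. YH and YL were the most alike on chromosome 1 and elsewhere, and every value of chromosome 1 was slightly lower than the pooled one. YH and YL were also the lists with the most reads (64.6 M and 68.3 M), and the part of depth in the index was not tested. Of the bases covered by any list, 39.7% were covered in 1 list, 21.3% in 2, 16.5% in 3 and 22.6% in all 4. Peaks that touched no peak of another list were 9.97% of the TH peaks, 7.47% for YH, 9.96% for TL and 9.20% for YL, and on the other chromosomes they were 10.19%, 6.81%, 9.08% and 9.05%. Such private peaks held a median of 16 tags for TH, 17 for YH, 15 for TL and 18 for YL, against 22, 24, 21 and 25 in shared peaks.

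Breeds and elevations were then compared in windows with a peak in 4 animals of 1 group and 0 of the other. For such a window, the two-sided Fisher's exact test gives p = 0.0286, the smallest p that 4 against 4 animals allow. After Benjamini-Hochberg adjustment over all windows of the genome with a peak in either group (493298 to 537403 per comparison) every adjusted p was 1 and no window passed in any of the 4 comparisons. With this smallest p, the adjustment could pass a window only if most windows tested were of 4 against 0. It therefore cannot tell whether the groups differ. At an unadjusted p under 0.05 the counts are the windows of 4 against 0 themselves, given here as a description.

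Between the breeds, windows of 4 against 0 were mostly on the Yorkshire side. In TH vs. YH, 172 windows of chromosome 1 (0.410% of its windows with a peak in either group) were of this kind, against 0.478% of all windows tested. They were 44 with peaks in TH (0.105%, against 0.0986% of all windows) and 128 with peaks in YH (0.305%, against 0.379%). In TL vs. YL there were 310 windows (0.711%, against 0.753%), 35 with peaks in TL (0.0803%, against 0.0851%) and 275 with peaks in YL (0.631%, against 0.667%). The share on the Tibetan side was 25.6% at high and 11.3% at low elevation, and it was 20.6% and 11.3% over the genome. The share at high elevation moved with the settings, to 43.7% with 3 or more animals against 0 and to 6.87% with peaks of at least 20 tags, and the share at low elevation was then 17.1% and 8.23%. These shares were near or below the background, so nothing is read from them about chromosome 1.

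Between elevations, windows were fewer. In TH vs. TL there were 84 (0.209%, against 0.217% of all windows), 56 with peaks in TH (0.139%, against 0.104%) and 28 with peaks in TL (0.0695%, against 0.114%). The highland side thus took 66.7% of these windows on chromosome 1 (95% Wilson interval 56.1 to 75.8%, counting error only) and 47.7% over the genome. The 56 windows formed 40 regions and neighbouring windows share peaks, so the interval is too narrow, and the difference was not tested. In YH vs. YL there were 132 windows (0.305%, against 0.256%), 30 with peaks in YH (0.0693%, against 0.0625%) and 102 with peaks in YL (0.236%, against 0.194%). In all 4 comparisons the side with more windows on chromosome 1 was also the list with more reads and more peaks, whereas over the genome the side of TL, the list with fewer of both, held more of the windows of TH vs. TL (561 against 511). The part of depth in these sides was not tested.

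**Figure D4:**
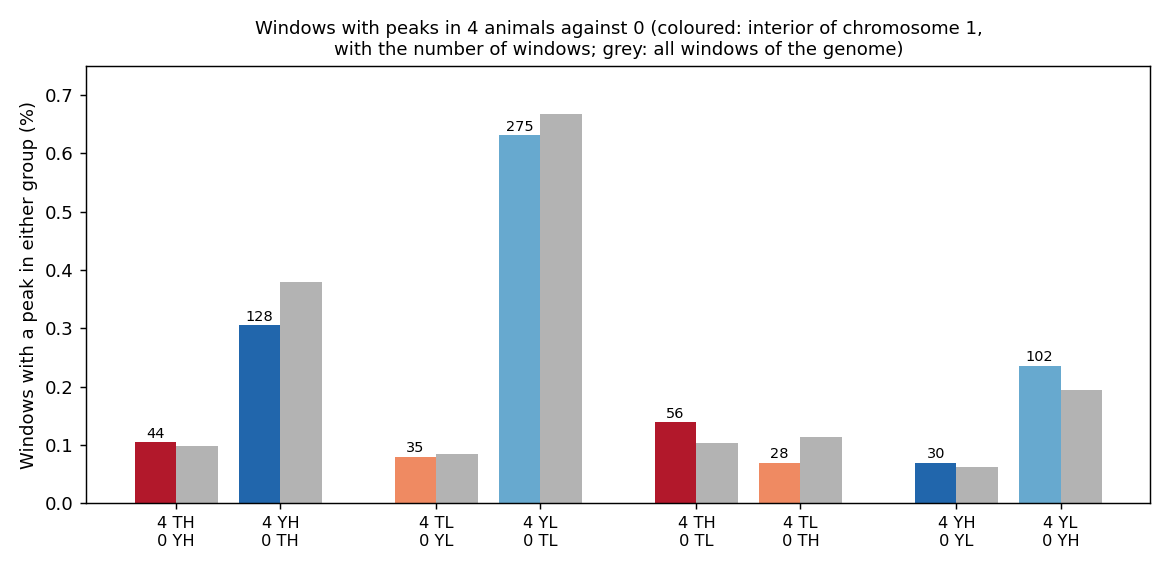
Windows with a peak in 4 animals of 1 group and 0 of the other, as a percentage of the windows with a peak in either group (y axis), by comparison and side (x axis). Coloured bars are the interior of chromosome 1, with the number of windows above, and grey bars are all windows tested in the genome. The side of TH against TL stands at 0.139% on chromosome 1 and 0.104% over the genome, and the side of TL at 0.0695% and 0.114%.

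Regions of such windows were named by length, 3 for each side of a comparison. Ties were frequent and were taken by position, so the places of the named regions along the chromosome are not a result. Peaks of the other groups are counted where they touch a region. On the Yorkshire side of TH vs. YH, 4 YH peaks of 64 to 79 tags at chr1:8291001-8293500 faced no TH peak, and this region also had 4 YL peaks of 70 to 105 tags and up to 3 TL peaks of 55 to 72 tags. At chr1:10840501-10842500, 4 YH peaks of 62 to 92 tags faced none in TH, with 1 peak of 64 tags in TL and 4 of 41 to 88 tags in YL. At chr1:10394001-10395500, the first of 4 regions of 1500 bp, 4 YH peaks of 38 to 61 tags faced none in TH, with 1 TL peak of 31 tags and 3 YL peaks of 46 to 62. In these 3 regions YL thus also had peaks in 3 or 4 animals. On the TH side the longest were 7 regions of 1000 bp. The first, chr1:24256001-24257000, chr1:29915501-29916500 and chr1:41506001-41507000, held 4 TH peaks of 19 to 30, 23 to 39 and 16 to 28 tags and none in YH, with 1 TL peak in each and 1, 1 and 3 YL peaks. The TH peaks there held 16 to 39 tags and the YH peaks of the other side 38 to 92. Fold enrichment was 7.52 to 16.34 in these TH peaks and 3.77 to 7.01 in these YH peaks. The regions were named by length and were longer on the YH side, so nothing is read from this contrast.

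In TL vs. YL, 4 YL peaks of 86 to 144 tags lay over chr1:10452001-10454000 while no TL peak lay over the middle of its windows, although 1 TL peak of 65 tags touched it. This region also had 4 YH peaks of 95 to 116 tags, and 3 TH peaks of 39 to 120 tags touched it. Of 13 regions of 1500 bp, the first were chr1:6013501-6015000, with 4 YL peaks of 30 to 69 tags, none in TL and 1 each in TH and YH, and chr1:10229001-10230500, with 4 YL peaks of 50 to 67 tags, none in TL or TH and 2 of 43 and 51 tags in YH. On the TL side the longest was chr1:286113001-286114500, where 4 TL peaks of 48 to 59 tags faced none in YL, with 2 peaks in TH and up to 2 in YH. Of 6 regions of 1000 bp, the first were chr1:12636501-12637500, with 4 TL peaks of 17 to 25 tags, 2 in TH and none in either Yorkshire group, and chr1:36572501-36573500, with 4 TL peaks of 22 to 37 tags, 1 each in TH and YH and none in YL.

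The longest between elevations was chr1:17600501-17603500. It held 4 TH peaks of 85 to 248 tags and none in TL, with 2 peaks in YH (170 and 220 tags) and 1 in YL (196 tags). At chr1:284501001-284503000, next to the fullest 100 kb bin, 4 TH peaks of 58 to 114 tags again faced none in TL, while 1 YH peak of 267 tags and 1 YL peak of 147 tags there were higher than each TH peak. The first of 8 regions of 1000 bp was chr1:6932001-6933000, with 4 TH peaks of 14 to 24 tags, none in TL, 1 in YH and 3 in YL. On the TL side the longest were 5 regions of 1000 bp. The first, chr1:10400501-10401500, chr1:183800501-183801500 and chr1:218228501-218229500, held 4 TL peaks of 18 to 46, 14 to 18 and 13 to 22 tags and none in TH, with 2 YH peaks in each and 2, 3 and 4 YL peaks. In Yorkshire pigs the longest was chr1:309035501-309038000, with 4 YL peaks of 95 to 146 tags, none in YH, 2 in TH and 1 in TL. The next, chr1:8871001-8873000 and chr1:301990501-301992500, held 4 YL peaks of 55 to 175 and 69 to 138 tags and none in YH, with 3 and 2 peaks in TH and 2 and 4 in TL. Of the 4 TL peaks touching chr1:301990501-301992500, at most 2 lay over the middle of any of its windows. At chr1:283509001-283510500, 4 YH peaks of 35 to 63 tags faced none in YL and none in TL, with 1 peak of 31 tags in TH. Of 6 YH regions of 1000 bp, the first were chr1:10808501-10809500, with 4 YH peaks of 102 to 140 tags and 3 TH, 3 TL and 1 YL peaks touching it, and chr1:29070001-29071000, with 4 YH peaks of 21 to 24 tags and none in the other groups.

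By segments of 20 Mb, the first and the last part of the interior, both dense in peaks, lay on different sides of their share of the windows tested in 3 of the 4 comparisons. The first 20 Mb of the interior held 18.6% of them in TH vs. YH, 16.1% in TL vs. YL, 16.7% in TH vs. TL and 19.7% in YH vs. YL, with 12.5 to 12.7% of the windows tested on chromosome 1. The last 4.2 Mb, the densest segment, held 1.74% against 4.17% of the windows tested in TH vs. YH, 1.94% against 3.92% in TL vs. YL, 1.19% against 4.08% in TH vs. TL and 6.06% against 4.05% in YH vs. YL. The 20 Mb before it held 3.57% against 10.3% in TH vs. TL and 9.68 to 11.4% against 10.1 to 10.6% in the other comparisons. These counts are small, 1 to 8 windows in the last segment, and were not tested.

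Few windows differed in the same way in both comparisons of a kind. Of the 172 and 310 windows of the breed comparisons, 2 were shared (1.16% and 0.645%), both with a peak over the middle base in all Yorkshire pigs and in no Tibetan pig. Over the genome 104 windows were shared (4.18% and 2.58%), of which 98 had the peaks in Yorkshire pigs, 4 in Tibetan pigs and 2 in opposite directions, so the shared share of chromosome 1 was below that of the genome. They are named here because they are so few, after their values were seen. At chr1:82824501-82825000 the peaks held 23, 25, 28 and 28 tags in YH and 26, 28, 28 and 33 in YL, and no peak of TH or TL touched the window. At chr1:300108001-300108500 they held 75, 87, 93 and 106 tags in YH and 64, 87, 93 and 107 in YL, while the edge of 1 TL peak of 54 tags reached into the window. The tags of YH and YL overlapped at both. No window was shared by the 84 and 132 windows of the elevation comparisons.

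When the 8 animals of a breed were joined, which was added after the data were seen, 898 windows (1.63% of the 55151, against 1.83% of all windows tested) had an unadjusted two-sided Fisher's exact p under 0.05. Of these, 135 had more peaks in Tibetan and 763 in Yorkshire pigs. By elevation the number was 213 (0.386%, against 0.403%), 83 with more peaks at high and 130 at low elevation. The smallest p was 0.000155 for breed and 0.0014 for elevation over the genome, every adjusted p was 1, and no window passed.

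The part used here of the study's list of differential windows names 129 windows of 62 genes inside the interior, as placed on Sscrofa10.2. They were listed for the breed comparisons, 39 for TH vs. YH and 93 for TL vs. YL with 3 in both, and lists for the elevation comparisons were not used here. Of the 62 symbols, 59 are in RefSeq, and 58 of these are on chromosome 1 in its build Sscrofa11.1. The other, LEP, which codes for leptin, is on chromosome 18 there. Its listed windows run from chr1:293709001 to chr1:294249500 and are counted as labelled, and whether they belong to LEP was not examined. The 129 windows were listed because they differed in these samples, so their counts are a description with no test. They were 101 intronic, 13 promoter, 9 transcriptional termination region (TTR), 3 coding, 2 5′-UTR and 1 3′-UTR windows. In 42 windows no list had a peak over the middle base, in 31 windows of 22 genes a list had at least 3 peaks, and no window had a peak in all 16 animals. The 87 windows with a peak were 67.4% of those listed, against 9.06% of all windows of the interior, and the 31 were 35.6% of the 87, against 26.0% of the interior's windows with a peak. A window could be listed through its peaks, so nothing is read from these shares.

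Of the genes on which the study centred, 4 lie in the interior, each in intronic windows. BCKDHB codes for a subunit of the branched-chain keto acid dehydrogenase, which breaks down leucine, isoleucine and valine. At its window chr1:96439001-96439500, 3 TH peaks held 20, 39 and 43 tags and 1 YH peak held 22 tags. In the same window 4 TL peaks held 21, 21, 24 and 41 tags and 3 YL peaks 20, 27 and 34. YH was thus the list with the fewest peaks there, and the tags of all lists overlapped. At its window chr1:96711001-96711500, 2 TH peaks held 18 and 31 tags, 1 YH peak 51, 1 TL peak 30 and 3 YL peaks 41, 55 and 58. The YH peak and 2 of the YL peaks also lay over the third BCKDHB window, chr1:96710001-96710500, so these are not separate peaks.

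Methylation of BCKDHB was also assayed by the study with bisulfite sequencing, in which unmethylated cytosine is read as T. The primers are shown because they are the designed sequences for this gene. The amplicon is on chromosome 1 and its position is not given in the sources used here.
BCKDHB forward: aaaattagattttgatataatatgg
BCKDHB reverse: atacctatacactcaacatttactc
The forward primer has no C in its 25 bases and the reverse primer no G in its 25, as primers for converted DNA do.

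SMAD2 codes for a transducer of transforming growth factor beta and activin signals. At its window chr1:106962501-106963000, all 4 YH animals had a peak (22, 24, 30 and 32 tags) and all 4 YL animals did (16, 23, 24 and 27 tags), against 1 TH peak and 1 TL peak of 20 tags each. Both Yorkshire groups thus had more peaks than both Tibetan groups. IGF1R codes for the receptor of insulin-like growth factor 1. At chr1:153532001-153532500 it had peaks in nearly all animals, with 42, 77 and 91 tags for TH, 78, 93, 94 and 104 for YH, 35, 48, 57 and 57 for TL and 30, 62, 92 and 137 for YL. The lists there overlapped, apart from YH and TL, in which all YH peaks were above all TL peaks. Its other window, chr1:153677001-153677500, had no peak, and the nearest peak lay 1237 bp away for TH, 11472 bp for YH, 1345 bp for TL and 1238 bp for YL. MAP2K1 codes for the kinase MEK1, which activates ERK. At chr1:182169001-182169500 no list had a peak over the middle base, and the edge of 1 peak in TH, YH and TL and of 3 in YL reached into the window.

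Other genes had at least 3 peaks in a list. PDSS2, which takes part in the synthesis of coenzyme Q, had peaks in 4 TH and 4 TL animals and in 1 animal each of YH and YL, so both Tibetan groups stood above both Yorkshire groups. Its tags were 15, 16, 35 and 41 for TH, 14 for YH, 15, 17, 17 and 22 for TL and 14 for YL. FBXL4, a mitochondrial F-box protein gene, had at its promoter window chr1:74474001-74474500 the only 4 against 0 of the 129 windows in the 4 comparisons, with 4 YL peaks of 16, 18, 19 and 20 tags and no TL peak. It was 1 of 76 listed windows with a peak in TL or YL (1.32%), against 0.711% of such windows on chromosome 1 and 0.753% over the genome, and nothing is read from it. It had 1 peak of 20 tags in TH and 1 of 14 in YH. PARK2 had 4 such windows, with TH, YH, TL and YL counts of 3, 1, 4 and 2 at chr1:7428001-7428500, of 3, 0, 0 and 1 at chr1:7504501-7505000, of 2, 3, 4 and 4 at chr1:8091001-8091500 and of 2, 3, 1 and 2 at chr1:8240501-8241000. AGPAT4, an acyltransferase of phosphatidic acid synthesis, had 0, 2, 1 and 4 peaks at chr1:8361001-8361500. It also had 0, 1, 0 and 3 at chr1:8382001-8382500 and 1, 1, 0 and 3 at chr1:8383501-8384000, with the same YH and YL peaks over both. LIPC, the hepatic lipase gene, had 0, 3, 0 and 1 peaks at chr1:125436501-125437000, and 2, 3, 1 and 4 at chr1:125622501-125623000.

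**Figure D5:**
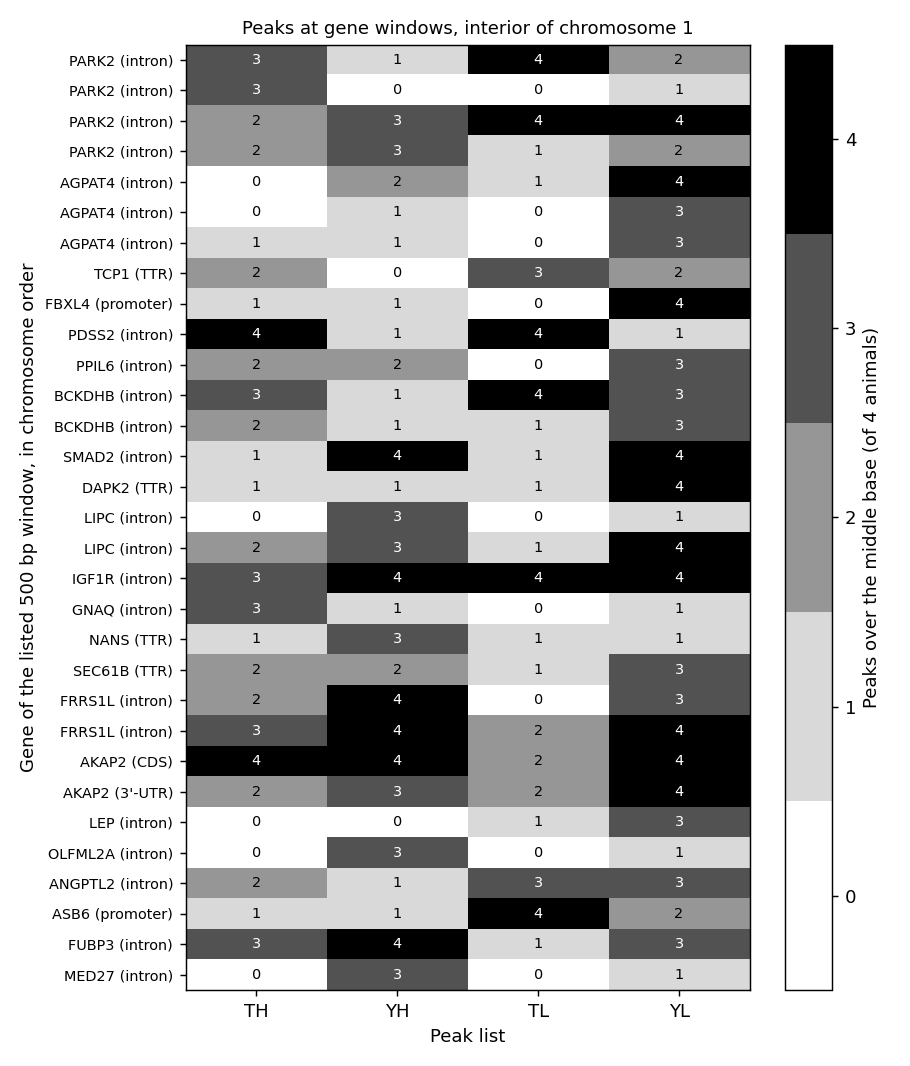
Number of peaks over the middle base (grey scale and digits, 0 to 4 animals) in each list (x axis) at the 31 listed gene windows with at least 3 peaks in a list, in chromosome order (y axis). SMAD2 has 4 peaks in YH and in YL and 1 in TH and in TL, PDSS2 has 4 in TH and in TL and 1 in YH and in YL, and IGF1R has 3 or 4 in every list.

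DAPK2, a death-associated kinase gene, had 1, 1, 1 and 4 peaks in TH, YH, TL and YL, and GNAQ, the G protein alpha q gene, had 3, 1, 0 and 1. AKAP2, an anchor of protein kinase A, had 4, 4, 2 and 4 in a coding window and 2, 3, 2 and 4 in its 3′-UTR window. FUBP3 had 3, 4, 1 and 3, and MED27, a Mediator subunit gene, had 0, 3, 0 and 1. The promoter window of ASB6, which codes for a SOCS box protein, had 1, 1, 4 and 2. FRRS1L, linked to the assembly of glutamate receptors, had 2, 4, 0 and 3 in 1 intronic window and 3, 4, 2 and 4 in another. The window of OLFML2A had 0, 3, 0 and 1, and that of ANGPTL2, an angiopoietin-like gene, 2, 1, 3 and 3. TCP1, a chaperonin subunit gene, had 2, 0, 3 and 2, PPIL6 had 2, 2, 0 and 3, and NANS, the sialic acid synthase gene, had 1, 3, 1 and 1. SEC61B, a translocon subunit gene, had 2, 2, 1 and 3, and a window labelled LEP had 0, 0, 1 and 3. No gene window had a peak in every animal of 1 breed and in no animal of the other.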

How the data were processed

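MeDIP-seq data of heart tissue from 16 castrated boars (4 each of TH, YH, TL and YL) were used. The authors sequenced 50 bp reads of fragments of about 250 bp, filtered them with FASTX 0.0.13 and used Bowtie 0.12.8 for mapping to Sscrofa10.2 of Ensembl release 69. Peaks were those of MACS 1.4 with a DiffScore of 50 or more. They deposited 1 list of peaks per group, with positions in bp, tags per peak as a raw count, and the fold enrichment of tags over background as a ratio. For 100907 TH peaks the end came from the joint start and end field. The authors' counts of uniquely mapped reads ranged from 12798952 to 18480183 per animal.

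The members and gene lists were chosen with earlier results of these data known. Interiors of chromosomes 2 to 18 were cut as that of chromosome 1, with the largest peak end as the length of a chromosome. Bins of 1 Mb and 100 kb began at the first base of the interior. Bases and 500 bp windows were counted by the number of peaks over them, the latter at the middle base (base 250), and a window with a peak was tested with Fisher's exact test (two-sided), adjusted after Benjamini-Hochberg over all windows of the genome. Density intervals are exact Poisson and those of shares Wilson, both 95%, for counting error only. Without animal names, the other measures have no spread between animals. The window count was tested on simulated data. Named genes were all symbols of the usable part of the study's window list inside the interior, in full for BCKDHB, MAP2K1, SMAD2 and IGF1R, and of the others up to 20 with at least 3 peaks in a list. A result at 1 gene is left out of the text and of the window counts. Named regions were the 10 densest and 10 sparsest bins, the 5 longest peak-free stretches, the 5 longest regions with a peak in all animals and the 3 longest regions of 4 against 0 per side, ties by position. Alternatives were 2 or 10 Mb from each end, at least 20 tags, merged peaks, covered bases, depth, bins of 2 Mb, 3 or more animals against 0 and peaks over any base of a window. Gene names were matched to RefSeq, and no genome of Sscrofa10.2 was used here. The software was SciPy 1.17.1, pandas 2.3.3 and NumPy 2.4.6 under Python 3.11.15, with Matplotlib 3.10.9 for the plots.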

Additional observations from a re-analysis of the deposited data

How the results depend on the processing

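No window passed a test, and with 4 against 4 animals the adjustment could hardly pass one, so there was no call to lose or turn. No paired analysis was possible because the peaks carry no animal names, and leaving out each animal was not run for the same reason. In what follows 4 values are in the order TH, YH, TL and YL. With 10 Mb left out at each end, the density was 80.9, 83.7, 77.3 and 97.7 peaks per Mb, the median fold enrichment 9.21, 8.25, 8.81 and 8.38, the median length 872, 885, 824 and 899 bp, the median tags in YL 23, and the bases under 4 peaks in YH 11.2%. With peaks of at least 20 tags only, the density was 49.1, 56.7, 43.4 and 68.95 peaks per Mb and the ratio to the other chromosomes 0.678, 0.705, 0.686 and 0.718. The densest 30 bins then held 28.5%, 25.9%, 28.2% and 24.8% of the peaks and 19.2% of the 100 kb bins were empty. The bases under 4 peaks were 4.603% in TH and 10.5% in YL. By construction the median tags rose to 30, 30, 29 and 31, the length was 1088, 1083, 1071 and 1091 bp and the fold enrichment 8.57, 7.50, 7.67 and 7.87. The Jaccard index was 0.430 for TH and YH and 0.409 for TL and YL, and the windows of 4 against 0 in TH vs. TL numbered 44. With overlapping peaks merged, the density was 45.7, 44.1, 43.2 and 49.6 per Mb, so that TH was above YH, and the ratio 0.806 in TH, 0.819 in YH and 0.815 in YL. In covered bases the ratio was 0.715, 0.714, 0.726 and 0.711. The density of YL over TL was 1.03 when scaled to the reads. In bins of 2 Mb, the same share of bins, the densest, held 19.4%, 18.8%, 18.4% and 18.6% of the peaks. With 3 or more animals against 0 the windows numbered 1285 in TH vs. YH, 1671 in TL vs. YL, 889 in TH vs. TL and 949 in YH vs. YL, and with peaks over any base 266, 478 (TL vs. YL) and 213 (YH vs. YL). The depth and the single list per group limit what differences between groups can be shown here.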

Other observations

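With 3 or more animals against 0, the windows of chromosome 1 that met this in both comparisons of a kind could be counted. In the breed comparisons they were 113 (8.79% of 1285 and 6.76% of 1671), of which 83 had the same direction at both elevations, 69 with more peaks in Yorkshire and 14 in Tibetan pigs, and 30 had opposite directions. Over the genome they were 1439 (8.70% of 16541 and 6.44% of 22349), of which 1195 (83.04%) had the same direction. In the elevation comparisons they were 34 (3.82% of 889 and 3.58% of 949), of which 4 had the same direction in both breeds. The other 30 had opposite directions and are, by construction, the same 30 windows as in the breed comparisons, with peaks either in TH and YL or in YH and TL. Over the genome they were 351 (2.98% of 11786 and 3.06% of 11488), of which 244 (69.5%) had opposite directions, again the windows of opposite direction in the breed comparisons. The comparisons within each pair share no animals, and the difference between chromosome 1 and the genome was not tested.

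The stretch around chr1:284400002-284500001 combined several of the measures above. It was the fullest 100 kb bin of the interior, and the highest peak outside the region at 100.6 Mb lay in it in TH (474 tags), YH (1001 tags) and YL (766 tags), while the highest such peak of TL (309 tags) lay at chr1:9401081-9405421, which also covers the TCP1 window. The next 100 kb bins by the sum of the lists were chr1:7100002-7200001, with 34, 32, 35 and 42 peaks, and chr1:308100002-308200001, with 30, 35, 36 and 37, in TH, YH, TL and YL.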
